A study of Homo sapiens with 2 samples.

Results

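The TTR-high epithelial cells are cells of human colon organoids in which transthyretin (TTR) transcripts made up at least 500 of every 10000 unique molecular identifiers (UMIs, the tags that count single RNA molecules). They were chosen by measured values. A barcode had to hold at least 10000 UMIs, at most 20% mitochondrial UMIs, and, per 10000 UMIs, fewer than 300 of MALAT1, at least 2 of the epithelial gene EPCAM, fewer than 5 of COL1A1, COL1A2 and COL3A1 together, fewer than 2 of the enterocyte genes FABP2 and RBP2, fewer than 2 of the endocrine genes CHGA, CHGB, MLN and GHRL, and fewer than 2 of the cell cycle genes TOP2A, MKI67, CENPF, UBE2C, CDK1 and BIRC5. Of the 4898 barcodes in the files 497 met the rule, 432 of 3257 in the untreated library (CNT) and 65 of 1641 in the cytokine-treated library (3CK). No barcode was shared by the libraries.

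Both groups came from 1383D6, a human iPSC line (induced pluripotent stem cells) in established use, and so share 1 genetic background. Both were differentiated with Activin A, then FGF2, and in Matrigel with EGF, forskolin, PD98059, 5-Aza-2'-Deoxycytidine and further agents. The 3CK organoids were also exposed for 8 days to IL-1β, IFN-γ and TNF-α, whose doses the sources used here do not give, and the CNT organoids were not. The series title presents the organoids as a model of ulcerative colitis, and the comparison asks how transcript levels in these cells differ with the cytokines. Each group is 1 library, so no test across replicates was possible, and all intervals (95%) reflect counting error alone.

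Transthyretin carries thyroid hormone and retinol-binding protein in plasma and is secreted mainly by hepatocytes and the choroid plexus. The fetal liver and yolk sac also make alpha-fetoprotein, albumin, fibrinogen and apolipoproteins, and early endoderm shares several of these genes with the fetal gut. Interferon-γ switches on antigen presentation genes, in part through the factor IRF1, while TNF and IL-1 act through NF-κB on chemokines and acute phase proteins.

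The TTR-high cells held 32981074 UMIs in CNT and 5691268 in 3CK, with medians of 72096 and 92507 UMIs and of 8001 and 7991 genes per cell. Levels are given as CPM, the UMIs of a gene per 1000000 UMIs of the summed cells, and 3 UMIs correspond to 0.0910 CPM in CNT and 0.527 CPM in 3CK. Scrublet, a doublet caller, gave each barcode a score, and the 52 CNT and 16 3CK barcodes of highest score were marked. These numbers were set by an assumed rate of 0.8% per 1000 barcodes and are no count of detected doublets. Of the marked barcodes 0 were TTR-high, and no barcode was removed for it. The comparators were the 538 CNT and 595 3CK other epithelial cells (EPCAM of at least 2) and, among them, the 331 and 519 TTR-low cells, which met every criterion but the TTR minimum.

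TTR-high cells made up 432 of 970 epithelial cells in CNT (44.5%, exact Clopper-Pearson interval 41.4 to 47.7%) and 65 of 660 in 3CK (9.85%, 7.68 to 12.4%). Among cells that met all other criteria the shares were 56.6% of 763 and 11.1% of 584. TTR itself ran from 502 to 2725 UMIs per 10000 with a median of 889 in CNT cells, and from 503 to 1857 with a median of 653 in 3CK cells. These values restate the rule and are given as a description. The minimum lies on a slope without a gap: 31 CNT cells and 14 3CK cells had TTR of 500 to 550, and 39 and 10 had TTR of 450 to 500. Just inside and just outside that line, ALB stood at 1903 and 821 CPM in CNT and at 1189 and 281 CPM in 3CK, and AFP at 6937 and 9510 CPM in CNT and at 4285 and 3412 CPM in 3CK.

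**Figure D1:**
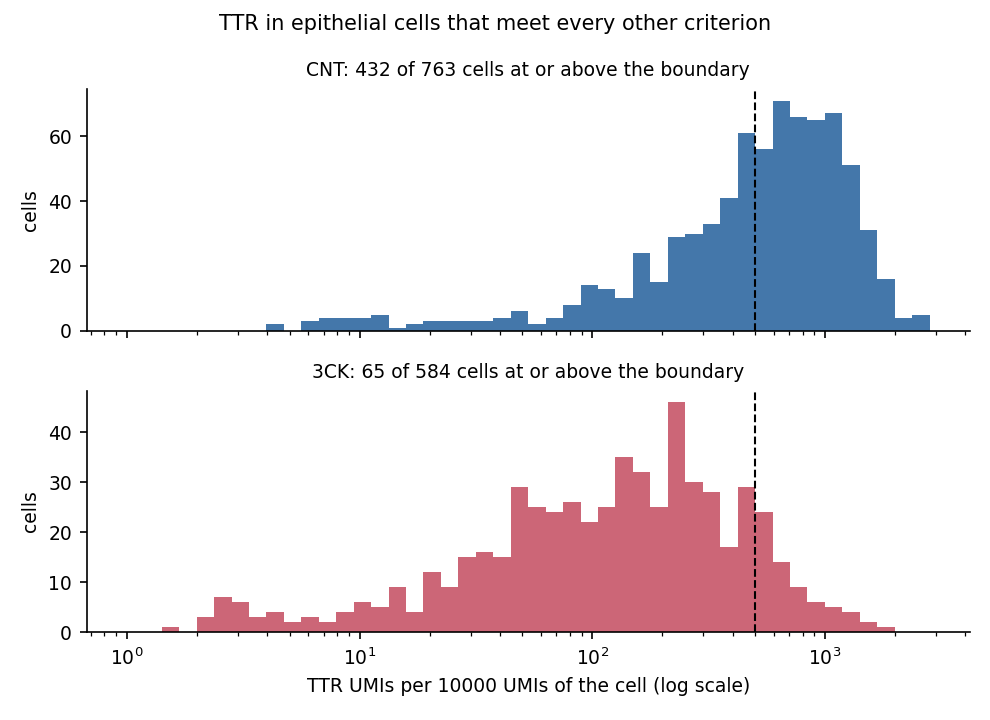
Number of cells by TTR level (UMIs per 10000, log axis) among the 763 CNT and 584 3CK cells that met every other criterion, with the minimum of 500 as a dashed line. To its right lie 432 CNT and 65 3CK cells.

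Against defining markers the cells held transcripts of hepatic secreted proteins together with intestinal identity genes. ALB (albumin) stood at 1823 CPM in the CNT sum and 1083 CPM in the 3CK sum, FGB (fibrinogen beta chain) at 4191 and 3978 CPM, TF (transferrin) at 159 and 167 CPM, and HNF4A, a transcription factor of liver and gut, at 37.0 and 17.0 CPM. The hindgut regulator CDX2 was at 84.2 and 117 CPM and the intestinal cadherin CDH17 at 301 and 248 CPM. Against other epithelial cells, 14 of 18 intestinal genes were lower in CNT (median log2 ratio -0.44) and 11 of 18 higher in 3CK (0.10). Hepatic secreted genes were also present in other epithelial cells. Without TTR they summed there to 15668 CPM in CNT and 7392 CPM in 3CK, against 24992 and 19686.5 CPM in TTR-high cells. Apolipoprotein and lipid export genes summed to 32763 and 14388 CPM there, against 41660 and 33013 CPM. The hindgut HOX list was low, summing to 6.97 and 4.39 CPM over 14 genes, against 34.5 and 15.3 CPM in other epithelial cells. The mature hepatocyte list of enzymes and receptors summed to 719 and 345 CPM, against 535 and 167 CPM in other epithelial cells. In TTR-high cells this list had FAH, an enzyme of tyrosine breakdown, at 24.5 and 26.2 CPM and ASS1, of the urea cycle, at 19.2 and 26.7 CPM. Some of its defining enzymes, named after their values were seen, were at or near 0: CYP3A4 had 2 UMIs in CNT and 0 in 3CK, CYP1A2 and CYP7A1 had 0 in both, G6PC 2 and 0, and the urea cycle gene CPS1 2.70 and 0.527 CPM. APOH, another hepatic marker, had 2.24 and 1.05 CPM. The cells are therefore called TTR-high epithelial cells here and not hepatocytes.

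Some defining markers of other cell types were near 0, while other members of the same lists were present. In the choroid plexus list the defining genes OTX2 (1.30 and 0.879 CPM), KL (0.0910 and 0 CPM) and LMX1A (2 UMIs and 1 UMI) were near 0, while KCNJ13 had 75.3 and 19.7 CPM and FOLR1 52.2 and 69.6 CPM. Summed over 9 genes that list stood at 183 and 110 CPM in TTR-high cells and at 146 and 53.8 CPM in the other epithelial cells. PTPRC, the pan-leukocyte marker, had 3 UMIs and 0 UMIs, and SOX2 had 2 and 0. Other listed markers were found, at full depth, in most TTR-high cells. CD68 (blood) was in 69.7 and 87.7%, TUBB3 (neural) in 77.1 and 84.6% and CLIC6 (choroid plexus) in 67.1 and 50.8%. Cholangiocyte markers summed to 2631 and 2248 CPM, against 3023 and 2581 CPM in other epithelial cells. Pancreas and stomach markers summed to 1122 and 1349 CPM, against 1084 and 383 CPM. Collagen cells with EPCAM under 2 (284 in CNT and 101 in 3CK, median depth 54464 and 85476 UMIs) served as a reference outside the epithelium. They held AFP at 198 and 65.6 CPM against 9031 and 5177 CPM in TTR-high cells, and ALB at 55.7 and 12.9 CPM. How much of this was free RNA, mixed barcodes or expression was not tested. After each cell was thinned to 10000 UMIs, 89.6% of CNT and 83.1% of 3CK TTR-high cells had an ALB UMI, against 35.6% and 6.93% of those collagen cells (99.8 and 100% against 86.3 and 49.5% unthinned).

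The interferon-γ response had the highest median ratio of the gene lists in TTR-high cells. All 26 listed genes had a higher CPM in 3CK than in CNT, with a median log2 ratio of 6.07, where the median over 8685 genes with at least 10 CPM in either sum was -0.12. Of 25 listed genes with at least 10 CPM, 25 were at least 2-fold higher, and of all 8685 genes 463 were (5.33%), while 602 (6.93%) were at least 2-fold lower. The number of lower genes was 993 when only cells with TTR below 1000 were summed, and 915 with a total that left out mitochondrial, ribosomal and the 50 most abundant genes. CXCL10 (chr4:76021118-76023497), a chemokine that draws T cells through CXCR3, had 4 UMIs in CNT, all in 1 cell (0.121 CPM), and 4318 in 3CK (759 CPM, log2 ratio 12.61, counting interval 11.25 to 14.49). Of those 4318 UMIs 61.4% came from 1 of the 65 cells, and without the highest cell of each library the log2 ratio was 11.68. The median treated cell held 47.2 CPM of CXCL10. After thinning, 44.6% of treated TTR-high cells and 74.3% of treated collagen cells had a CXCL10 UMI (84.6 and 94.1% unthinned), and the collagen cells held 2491 CPM. The share is thus not above that of cells outside the epithelium and is not read as expression. Those cells were exposed to the cytokines too, so for response genes they cannot tell free RNA from expression. The part of free RNA was not tested.

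Other interferon genes had a smaller share of their treated UMIs in 1 cell. IDO1, which breaks down tryptophan, had 3 UMIs in CNT (0.0910 CPM) and 267 CPM with treatment (log2 ratio 11.52, 9.97 to 13.80), and 9.20% of its treated UMIs lay in 1 cell. Its share of cells after thinning, 61.5%, was also not above the 67.3% of treated collagen cells (80.0 and 90.1% unthinned) and is likewise not read as expression. The guanylate-binding protein gene GBP5 stood at 0.273 and 192 CPM (9.46, 8.52 to 10.59), and the immunoproteasome subunit PSMB9 at 0.879 and 527 CPM (9.23, 8.70 to 9.81). CXCL11 (9.13), HLA-F (8.25), CD40 (7.74), BATF2 (7.66) and IFIT2 (7.57) completed, with PIGR, the 10 largest ratios of genes that reached 50 CPM in either library. PIGR (chr1:206928522-206946466), the receptor that carries IgA and IgM across mucosal epithelium, had 1 UMI in CNT and 838 in 3CK (147 CPM, log2 ratio 12.25, 9.76 to 17.55). After thinning, a PIGR UMI was found in 44.6% of treated TTR-high cells, in 0.231% of the CNT cells and in 1.98% of treated collagen cells (83.1, 0.231 and 19.8% unthinned).

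MHC class I and peptide-loading genes stood at far higher levels throughout. All 12 were at least 2-fold higher, with a median log2 ratio of 4.08. HLA-B had a median of 127 CPM per CNT cell, with a range from 0 to 2568, and a median of 4970 CPM per 3CK cell, with a range from 177 to 16430. The ranges overlapped, but the lower quartile of treated cells, 3905 CPM, lay above the highest CNT cell. The summed levels were 217 and 5095 CPM for HLA-B and 985 and 10923 CPM for B2M, the light chain of every class I molecule. Reads of the near-identical HLA class I genes may be split between them, so single HLA values are uncertain. Class I genes, like other response genes given without a collagen cell value, are not set against those cells here. The part of free RNA in them was not tested. MHC class II was not part of this pattern: CD74, the invariant chain, stood at 12.9 and 68.5 CPM (log2 ratio 2.41), 1 of 3 listed genes with at least 10 CPM was 2-fold higher, and HLA-DPB1 stood at 58.5 and 56.6 CPM.

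**Figure D2:**
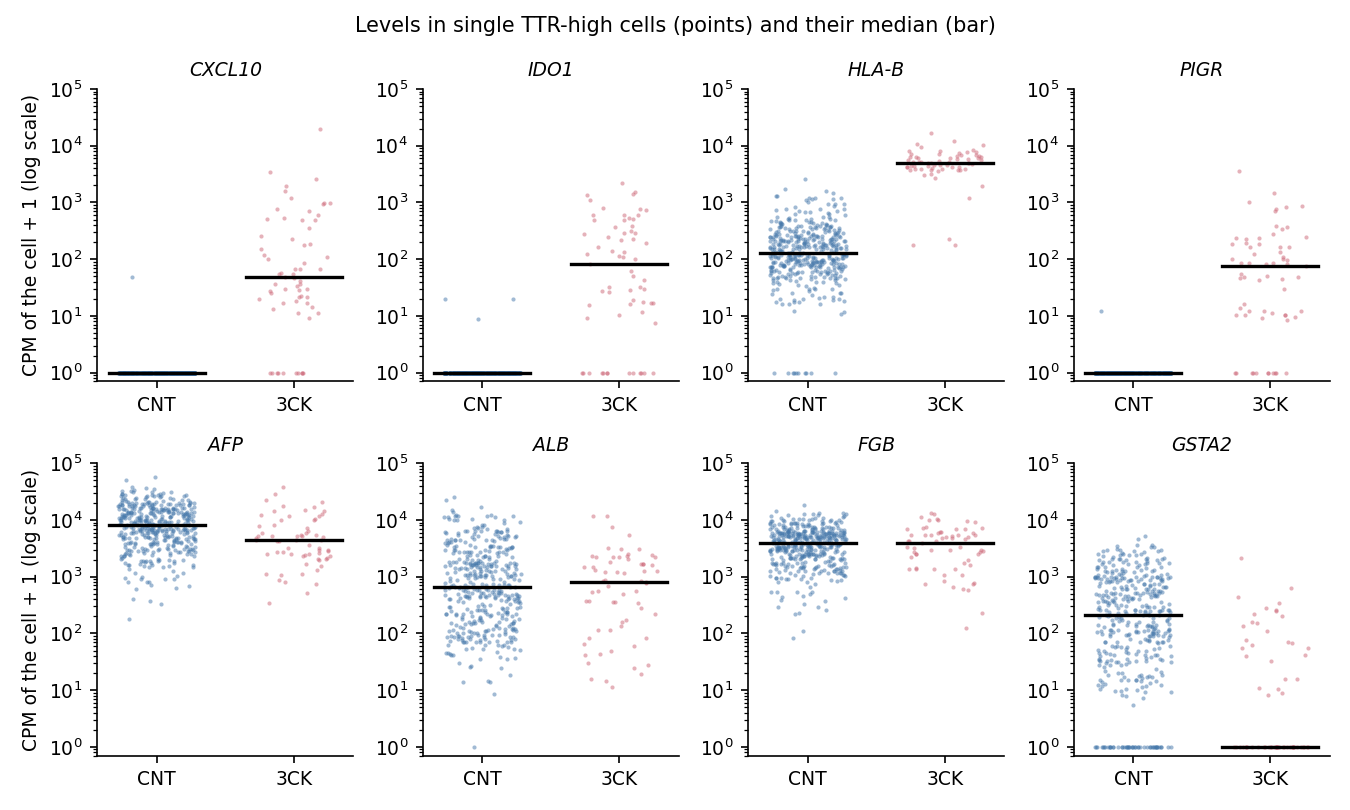
Level of 8 genes (CPM plus 1, log scale) in CNT (432 cells) and 3CK (65 cells), with each point 1 TTR-high cell and each bar the median. HLA-B is high in nearly every treated cell, while CXCL10 reaches 19796 CPM in 1 cell.

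Regulators and receptors had ratios of both signs. IRF1, a transcription factor of the interferon response, stood at 13.1 and 209 CPM (log2 ratio 3.99). The interferon-γ receptor chain IFNGR1 stood at 53.9 and 182 CPM (1.76), STAT3 at 41.6 and 113 CPM (1.44), the TNF receptor TNFRSF1A at 51.2 and 94.9 CPM (0.89), and the IL-1 receptor IL1R1 at 4.37 and 4.74 CPM (0.12, -0.53 to 0.72). The second TNF receptor, TNFRSF1B, was low, at 0.424 and 4.39 CPM (14 and 25 UMIs), with a larger ratio (3.37, 2.37 to 4.43). IL1RAP, the co-receptor for IL-1, was lower at 25.5 and 9.49 CPM (-1.43). Of 10 receptor and signalling genes with at least 10 CPM, 3 were at least 2-fold higher and 2 lower, against 5.33 and 6.93% of all 8685 genes.

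NF-κB targets were higher to a smaller extent and unevenly between cells. Of 18 genes with at least 10 CPM, 15 were at least 2-fold higher, where 5.33% of all 8685 genes were. The median over 22 was 1.75 (2.96 over the genes with at least 10 CPM). Of the 22 genes 3 were below 0, with VCAM1, which did not reach 10 CPM, lowest at -2.92. ICAM1, the ligand of leukocyte integrins, stood at 11.4 and 461 CPM (log2 ratio 5.33, 5.18 to 5.49) and the chemokine CCL20 at 17.2 and 491 CPM (4.84, 4.70 to 4.97). Per cell, the summed NF-κB list had a median of 1.81 UMIs per 10000 in CNT and 14.9 in 3CK TTR-high cells, and of 31.4 in 3CK TTR-low cells. Of 65 treated TTR-high cells 24 (36.9%, 25.3 to 49.8%) exceeded the 99th percentile of CNT TTR-high cells after thinning, against 404 of 519 TTR-low cells (77.8%).

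Of 18 positive acute phase genes 10 had a higher CPM in 3CK and 8 a lower one. Of the 13 with at least 10 CPM, 9 were at least 2-fold higher and 0 lower, against 5.33 and 6.93% of all 8685 genes. The median over 18 was 0.95, and it was 3.51 when only genes with at least 10 CPM entered. The higher members included SAA1, a serum amyloid A gene, at 6.09 and 475 CPM (log2 ratio 6.28, 6.08 to 6.50), LBP, the lipopolysaccharide-binding protein, at 4.31 and 86.5 CPM (4.33), the complement component C3 at 2.06 and 80.1 CPM (5.28) and LCN2 (lipocalin 2) at 1.52 and 244 CPM (7.33). Reads of SAA1 and SAA2 may be shared, since the genes are near-identical. LCN2 and LBP rested on few cells: 35.0% of treated UMIs of each lay in 1 cell, and the median treated cell held 11.7 CPM of LCN2 and 0 of LBP. After thinning, LCN2 was found in 23.1% of treated TTR-high cells (13.5 to 35.2%) and in 18.8% of treated collagen cells (11.7 to 27.8%), and SAA1 in 52.3 and 68.3% (unthinned 69.2 and 53.5% for LCN2, 89.2 and 90.1% for SAA1). The SAA1 share was therefore not above that of cells outside the epithelium, and the intervals of the LCN2 shares overlapped, so neither share is read as expression. Collagen cells, exposed to the cytokines as well, held SAA1 at 4706 CPM. The part of free RNA in its level in TTR-high cells was not tested.

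Fibrinogen, also counted among positive acute phase proteins, differed little in its sums. FGB stood at 4191 and 3978 CPM (-0.08, -0.10 to -0.05), with medians of 3903 and 3982 CPM per cell, and FGA at 1785 and 1512 CPM (-0.24). Of 7 negative acute phase genes with at least 10 CPM, TTR left out, 0 were at least 2-fold higher and 2 lower (median -0.75 over 9). In the complement and coagulation list 7 of 15 genes with at least 10 CPM were at least 2-fold higher and 3 lower (5.33 and 6.93% of all genes). SERPING1, the C1 inhibitor, stood at 10.9 and 328 CPM (4.92). Treated collagen cells held SERPING1 at 320 CPM, and after thinning its UMIs were in 87.7% of treated TTR-high and 87.1% of treated collagen cells (65 of 65 and 100 of 101 cells unthinned), a share not read as expression. Of 14 cell death genes with at least 10 CPM 10 were at least 2-fold higher (5.33% of all genes). CASP1 stood at 0.182 and 43.4 CPM and TNFSF10 (TRAIL) at 9.95 and 205 CPM, while BAX stood at 207 and 224 CPM (0.11).

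Secreted hepatic proteins and apolipoproteins with at least 10 CPM mostly lay within 2-fold between the libraries, as did most genes. Both libraries were cut at the same TTR minimum, so for genes that go with TTR between cells these ratios carry the choice of cells. Leaving out TTR, 0 of 13 hepatic secreted genes with at least 10 CPM were 2-fold higher and 1 was 2-fold lower, with a median log2 ratio of -0.34 over 19 genes. The lower one was AHSG (fetuin-A), at 102 and 39.0 CPM (-1.39, -1.60 to -1.20). Below that minimum GC, the vitamin D-binding protein, had 84 UMIs and 1 UMI (2.55 and 0.176 CPM, -3.86, -9.18 to -1.34), but a log2 ratio of 0.32 with a TTR minimum of 1000. Of the 12 apolipoprotein and lipid export genes 0 were past 2-fold in either direction, and their median was -0.39. Over all 8685 genes 5.33% were at least 2-fold higher and 6.93% lower, so these counts set neither list apart. AFP had 9031 and 5177 CPM (-0.80, -0.82 to -0.79; -1.12 without the 10 treated cells of low interferon level described further on), APOA2 13795 and 8539 CPM (-0.69), APOA1 12316 and 10526 CPM (-0.23), APOA4 3426 and 3665 CPM (0.10), RBP4, which carries retinol and binds transthyretin, 3267 and 3447 CPM (0.08) and SERPINA1 1067 and 1462 CPM (0.45). For ALB the sum and the typical cell differed in sign: the sums were 1823 and 1083 CPM (-0.75, -0.79 to -0.71), while the median cell held 669 CPM without and 809 CPM with treatment.

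The HNF1 half-site GTTAAT, searched on both strands in the 250 bases before each start site, was found in 7 of 18 promoters of hepatic secreted genes (38.9%), in 1 of 9 apolipoprotein promoters (11.1%) and in 6.23% of 35116 RefSeq promoters. The promoters of AFP (chr4:73435971-73436220) and ALB (chr4:73404037-73404286), both on the plus strand of GRCh38.p14 and from RefSeq, are shown because these neighbouring genes mark the cells and stood at high levels in both libraries. Capitals mark the half-site, 132 bases before the start of AFP and 61 before that of ALB:
AFP: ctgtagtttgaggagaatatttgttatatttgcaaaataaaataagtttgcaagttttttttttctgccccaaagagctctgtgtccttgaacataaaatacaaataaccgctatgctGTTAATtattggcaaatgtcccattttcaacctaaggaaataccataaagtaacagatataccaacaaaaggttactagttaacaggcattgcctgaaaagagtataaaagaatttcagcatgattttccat
ALB: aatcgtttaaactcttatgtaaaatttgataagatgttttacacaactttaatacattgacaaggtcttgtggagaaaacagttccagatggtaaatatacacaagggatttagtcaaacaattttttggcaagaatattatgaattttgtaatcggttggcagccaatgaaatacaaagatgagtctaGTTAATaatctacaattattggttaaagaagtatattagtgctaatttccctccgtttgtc
The promoter windows of APOA2, APOA4 and APELA held no match to these letters.

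Among metabolic and detoxification genes with at least 10 CPM, all that were past 2-fold were lower in treated TTR-high cells. Below that minimum the detoxification gene ADH1A went the other way, with a log2 ratio of 5.34. Of 9 mature hepatocyte genes with at least 10 CPM 6 were at least 2-fold lower (median -1.28 over 13), where 6.93% of all 8685 genes were. So were 6 of 13 detoxification genes (median -0.66 over 15), and by this minimum 0 of either list were 2-fold higher. The detoxification median ran from -1.52 with a TTR minimum of 250 to -0.42 with one of 1000. The glutathione transferase GSTA2 (chr6:52750087-52763475) stood at 525 and 83.8 CPM (-2.65, -2.78 to -2.52), though reads of GSTA1 and GSTA2 may be shared. After thinning, GSTA2 was found in 67.4% of CNT and 26.2% of treated TTR-high cells, against 8.10% and 0% of the collagen cells (88.9, 43.1, 31.3 and 0.990% unthinned; the exact upper limit for 0% is 3.59%). Its median per cell was 207 CPM in CNT and 0 in 3CK. The bile acid importer SLC10A1 stood at 38.0 and 4.92 CPM (-2.95), and ASGR2, a subunit of the asialoglycoprotein receptor, at 227 and 97.9 CPM (-1.21). In the treated cells 31.0% of GSTA2 and 61.9% of UGT3A1 UMIs came from 1 cell each, and without the highest cell of each library the log2 ratios were -3.12 and -4.23 (-2.89 with it for UGT3A1).

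Of genes that reached 50 CPM in either library the lowest ratio belonged to DNAH8, a dynein heavy chain, at 55.6 and 1.23 CPM (-5.50, -6.81 to -4.45), followed by C20orf204 (-3.70), KCTD12 (-3.06) and MYBL2 (-2.92). AQP3, a water and glycerol channel, stood at 50.4 and 7.38 CPM (-2.77). APELA, a peptide ligand of the apelin receptor made in early endoderm, stood at 101 and 17.7 CPM (-2.51, -2.81 to -2.22), and 35.6% of its treated UMIs lay in 1 cell (-3.08 without the highest cells).

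Intestinal genes past 2-fold included CEACAM5, a surface glycoprotein, which was higher at 10.8 and 67.8 CPM (2.66, 2.44 to 2.87). GUCA2A (guanylin) was lower at 20.2 and 3.51 CPM (-2.52). Both rested on few cells: 1 cell held 25.4% of CNT and 45.1% of treated CEACAM5 UMIs, and 30.6 and 80% for GUCA2A. The median cell held 0 CPM of each gene in both libraries. Without the highest cell of each library the log2 ratios were 2.23 and -4.29. Of 13 intestinal genes with at least 10 CPM 1 was 2-fold higher and 4 lower (median -0.22 over 17), against 5.33 and 6.93% of all 8685 genes. The trefoil peptide TFF1 stood at 933 and 1166 CPM (0.32) and ZG16, a lectin of the mucus layer, at 1768 and 1515 CPM (-0.22). CDX2 was 0.48 higher on the log2 scale (0.35 to 0.60), with medians of 73.3 and 102 CPM per cell. Of the transcription factors HNF4A was -1.12 (-1.43 to -0.82), HHEX -2.64 on 4 treated UMIs (4.37 and 0.703 CPM) and GATA6 -0.79, while CEBPB, a factor of the acute phase response, was at 22.1 and 78.7 CPM (1.83).

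**Figure D3:**
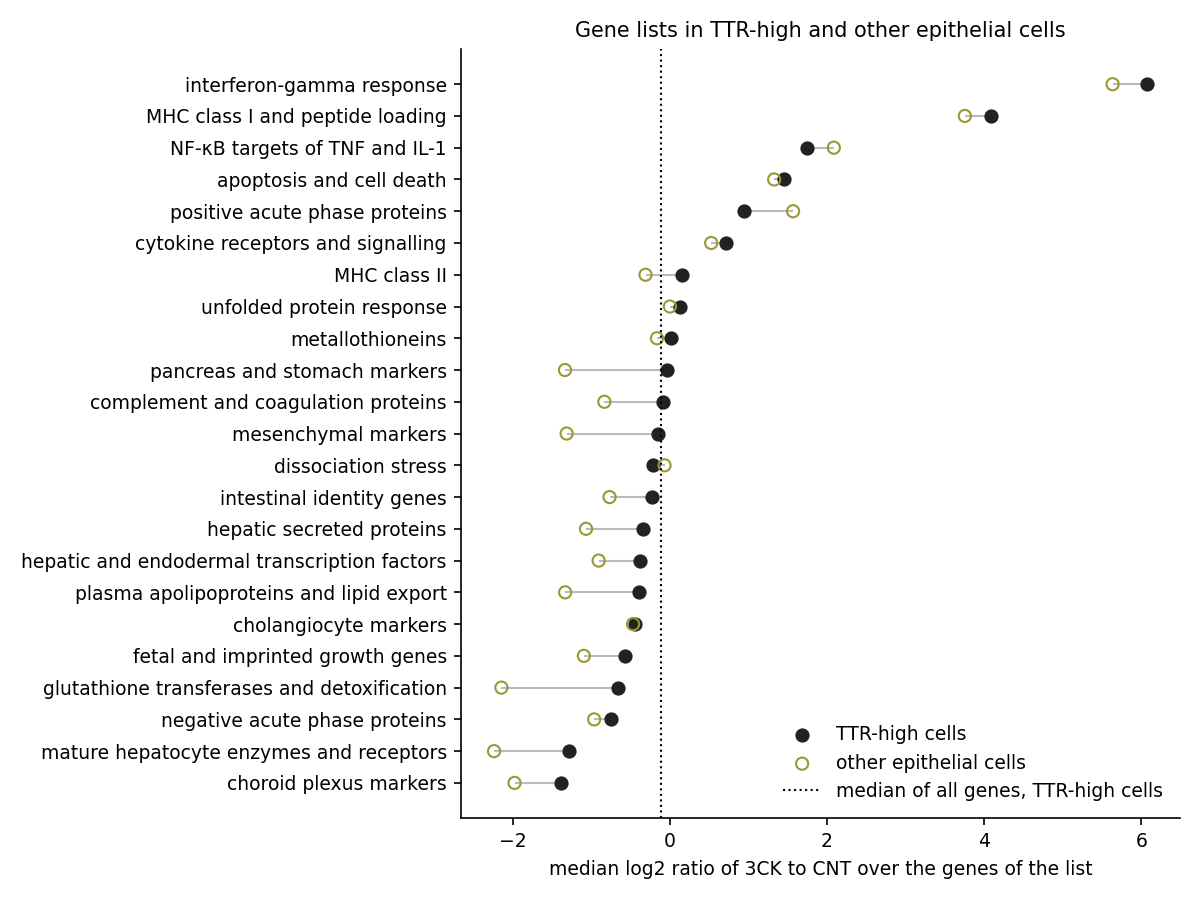
Median log2 ratio of 3CK over CNT for each gene list in TTR-high cells (filled) and in the other epithelial cells (open), with the median of all genes in TTR-high cells as a dotted line. The interferon list stands at 6.07 and 5.63, while hepatic secreted proteins stand at -0.34 and -1.06.

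The same treatment comparison in the other epithelial cells gave similar interferon values and lower hepatic ones. Their interferon median was 5.63 and their MHC class I median 3.75. Hepatic secreted genes had a median of -1.06 there, apolipoproteins -1.33 and detoxification genes -2.14. Taken gene by gene, the log2 ratio in TTR-high cells minus that in other epithelial cells had a median of 0.62 for hepatic secreted genes, 0.84 for apolipoproteins, 1.53 for detoxification, 0.23 for interferon and -0.33 for NF-κB genes, against -0.05 over 9899 genes. The detoxification value was 0.47 with a TTR minimum of 250 and the NF-κB value -0.03. Markers of other cell types had positive medians as well: pancreas and stomach 1.17, choroid plexus 0.59, neural and pluripotency 0.59, endothelial and blood 0.58 and mesenchymal 0.52. Their part in the hepatic values was not tested. Of these 9899 genes 364 (3.68%) had a difference of at least 1 and 129 (1.3%) of -1 or less. With TMM scaling, which shifts every difference by -0.12, the counts were 296 and 181. The TTR minimum was the same in both libraries, so a difference for TTR, or for a gene that goes with TTR between cells, carries the choice of cells, and these values are a description with no test.

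GSTA2 showed how far single genes differed. In other epithelial cells it stood at 302 CPM in CNT against 9.17 CPM with treatment (-5.04), so the difference of ratios was 2.39 (counting interval 2.21 to 2.57). REG4, a secreted lectin of gut and pancreas, had a difference of 3.84 (3.51 to 4.17), but 50% of its UMIs in treated TTR-high cells came from 1 cell. For PIGR the difference was 4.44 (1.54 to 7.34), which rests on 1 UMI in CNT TTR-high cells, and for SAA1 it was 3.20 (2.99 to 3.41), with CNT levels of 6.09 CPM in TTR-high and 128 CPM in other epithelial cells. The chemokine CCL3 differed the other way, at 17.7 CPM in treated TTR-high and 238 CPM in other treated epithelial cells (-2.95, -4.27 to -1.62).

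Within the CNT library most genes lay within 2-fold between TTR-high and other epithelial cells. Of 9383 genes with at least 10 CPM 7 (0.0746%) were at least 2-fold higher and 417 (4.44%) at least 2-fold lower, about a median of -0.26. With TMM factors, which shift this comparison by 0.41, the counts were 80 and 157. Hepatic secreted genes had a median of 0.62, with 0 of 13 past 2-fold, and apolipoproteins 0.19. Interferon genes had a median of -1.33 (-0.70 over genes with at least 10 CPM), with 18 of 20 below 0 and 3 of 10 at least 2-fold lower, and NF-κB genes -0.90, with all 21 below 0 and 6 of 16 at least 2-fold lower. Outside the genes of the rule and counting those that reached 50 CPM in either class, the lowest ratios were those of S100A9, a calprotectin subunit (0.879 against 50.6 CPM, -5.85), CXCL14 (-4.62), SAA1 (-4.40) and the matrix proteoglycan DCN (-3.75), on which the collagen limit of the rule bears.

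Within the 3CK library the contrast was wider. Of 8979 genes 196 (2.18%) were at least 2-fold higher in TTR-high cells and 849 (9.46%) lower, about a median of -0.34. With TMM factors (a shift of 0.29) the counts were 350 and 410, and with a total that leaves out mitochondrial, ribosomal and the 50 most abundant genes (0.16) they were 328 and 731. Of 13 hepatic secreted genes 9 were at least 2-fold higher (median 1.08) and of 12 apolipoprotein genes 10 (median 1.19). The pancreas and stomach markers also had 3 of 4 genes at least 2-fold higher (median 1.26), with sums of 1349 against 383 CPM, and their part in the hepatic values was not tested. Outside the genes of the rule and counting those that reached 50 CPM in either class, GSTA2 (3.19), UGT2B11 (2.87), TFF2 (2.78) and TFF3 (2.04) were among the 5 largest ratios. In treated TTR-high cells 29.3% of TFF2 and 29.4% of TFF3 UMIs lay in 1 cell. The median cell held 16.9 and 10.5 CPM of them, against sums of 157 and 135 CPM. All 26 interferon genes were lower in TTR-high than in other treated epithelial cells, 12 of them at least 2-fold (median -0.95), as were 9 of 20 NF-κB genes. By the same minimum CCL3 (-3.75), S100A9 (-3.70), CXCL9 (-2.90) and CXCL11 (-2.65) were lowest, whereas MHC class I genes had a median of -0.25.

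Per cell the same held for the interferon list. Its summed level had a median of 4.26 UMIs per 10000 in CNT TTR-high cells, 75.8 in treated TTR-high cells and 146 in treated TTR-low cells. For MHC class I the treated medians were 249 and 248, with the treated classes apart in the interferon list and close in class I. In ranges of rising TTR (below 50, to 100, 200, 300, 500, 1000 and above), CXCL10 in 3CK stood at 2368, 1825, 2335, 1625, 1733, 911 and 65.2 CPM. GBP5 went from 717 to 20.4 CPM over the same ranges and HLA-B from 5358 to 4227 CPM. The highest range holds only 12 treated cells. Without it GBP5 still went from 717 to 229 CPM, with CXCL10 ending at 911 CPM. GSTA2 went the other way, from 2.47 CPM in the lowest range to 59.0 CPM at TTR of 500 to 1000 and 197 CPM above.

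**Figure D4:**
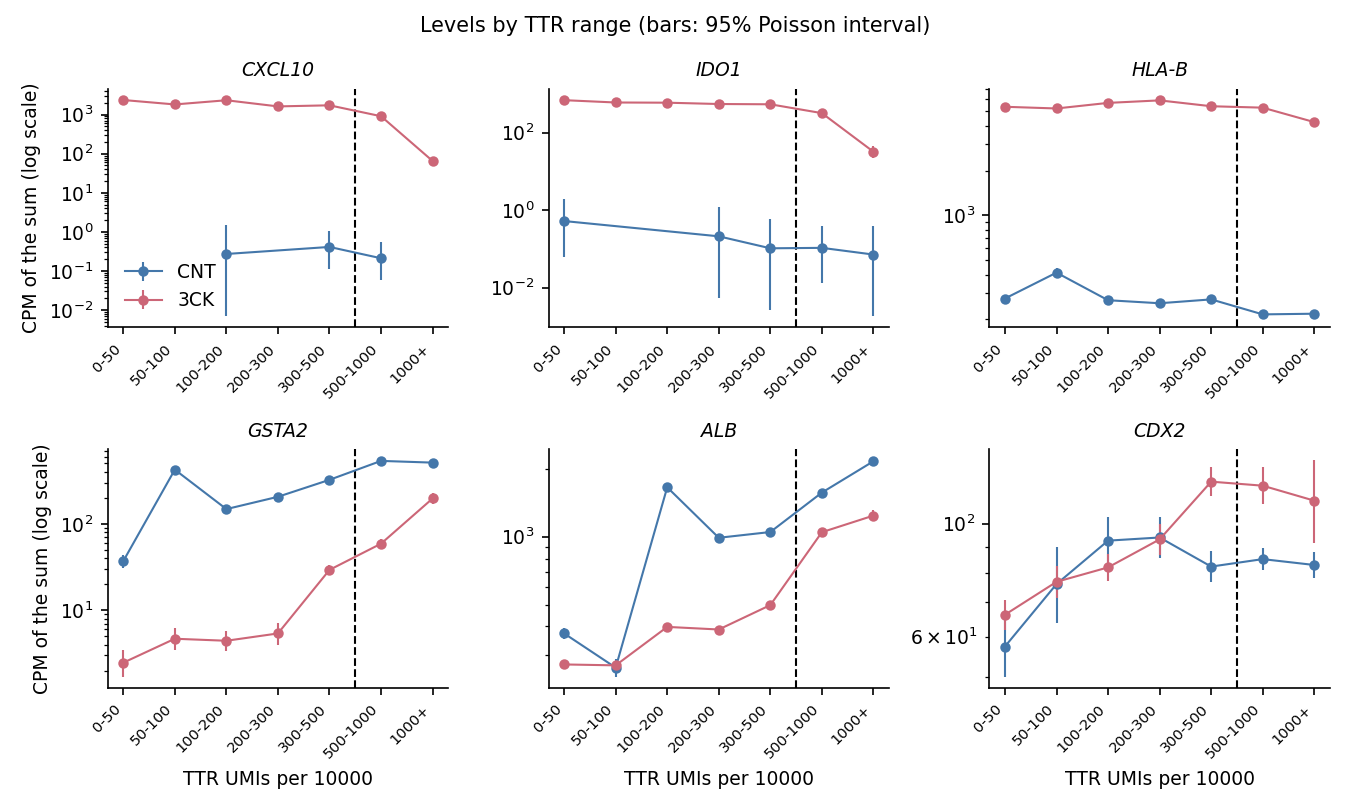
CPM (log axis, 95% Poisson bars, sums of 0 not drawn) of selected genes summed over cells in 7 ranges of TTR, in CNT and 3CK, with the minimum of 500 as a dashed line. In 3CK, CXCL10 is at 65.2 CPM in the highest range of 12 cells, while HLA-B stays between 4227 and 5916 CPM.

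Some treated TTR-high cells had a lower interferon level than most treated cells. After thinning, 55 of 65 (84.6%, 73.5 to 92.4%) exceeded the 99th percentile of CNT TTR-high cells for the interferon list (25.1 UMIs of 10000) and 10 did not, against 6 of 519 treated TTR-low cells. Of those 10 cells 5 were among the 53 with TTR below 1000 (9.43%, 3.13 to 20.7%) and 5 among the 12 above it (41.7%, 15.2 to 72.3%). Their median TTR was 1059 UMIs per 10000 against 633 in the other 55, at median depths of 92617 and 92106 UMIs. They held 16.0% of the UMIs of treated TTR-high cells, and by the same measure for MHC class I 7 of the 10 exceeded CNT cells while 3 did not. The interferon list of the 10 cells had a median of 14.1 UMIs per 10000 (4.39 to 32.6), against 86.0 in the 55. In CNT TTR-high cells it was 4.26, so the 10 cells were not at the typical CNT level. HLA-B stood at 3123 CPM in the 10 cells and 5470 in the 55, against 217 CPM in the CNT sum. AFP stood at 10533 and 4158 CPM. GSTA2 UMIs were found, unthinned, in 7 of the 10 cells and in 21 of the 55. These cells were singled out after their values were seen, and no cause was tested.

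**Figure D5:**
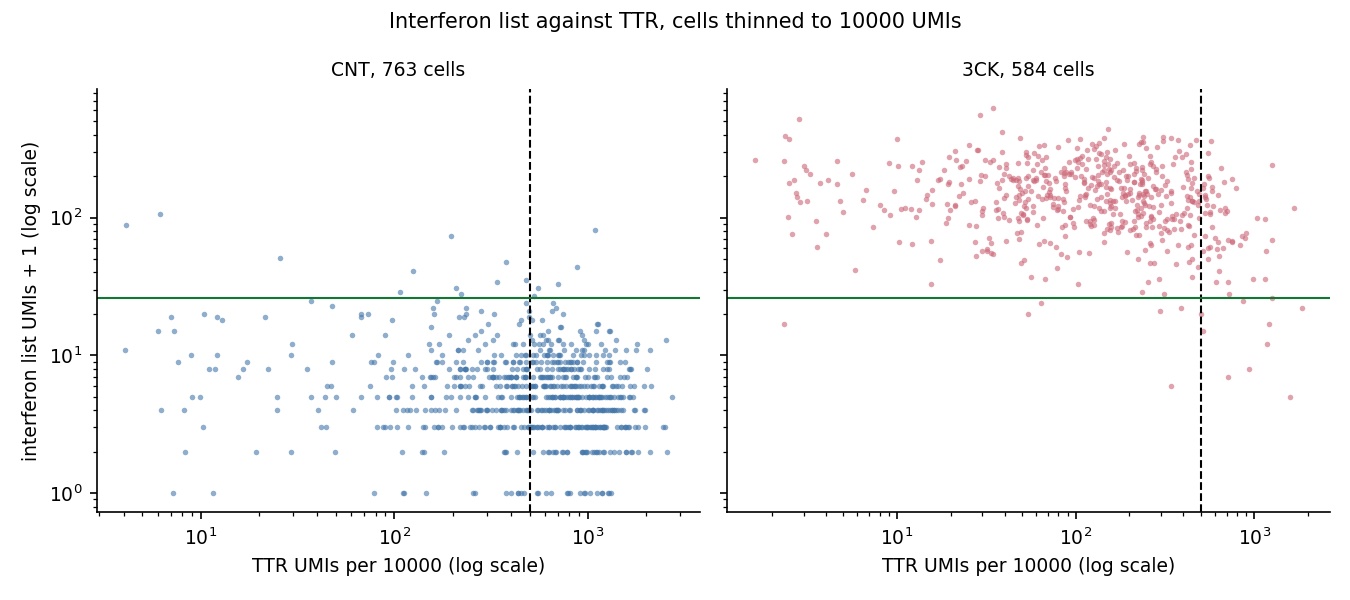
Interferon list UMIs plus 1 after thinning (log axis) against TTR per 10000 (log axis), each point 1 cell that met every other criterion, with the TTR minimum (dashed) and the 99th percentile of CNT TTR-high cells (green). Right of the dashed line 55 treated cells lie above the green line and 10 do not.

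Without those 10 cells the interferon median was 6.27, the log2 ratio of GSTA2 -2.93 and that of UGT3A1 -5.23, and the genes at least 2-fold higher and lower numbered 512 and 802. Across cells the rank correlation of TTR with the interferon list was -0.17 in 432 CNT cells and -0.34 in 65 3CK cells, where TTR and depth had correlations of 0.13 and -0.17. Among genes seen in at least 50% of TTR-high cells, IFI16 (-0.60), a DNA sensor, and MTHFD1L (-0.57), a mitochondrial folate enzyme, had the lowest correlation with TTR in 3CK, IFNGR1 had -0.54, and RNASE1 (0.45) and LINC00261 (0.37) the highest. The middle 95% of all such genes lay between -0.37 and 0.16. In CNT the range was narrower, with EIF3A lowest (-0.32), PRDX4, an endoplasmic reticulum peroxiredoxin, highest (0.21), and the middle 95% between -0.21 and 0.06. All cells of a library share that library, TTR is part of each cell's total, and no p-value is attached.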

How the data were processed

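The files hold UMI counts per gene and barcode, 1 matrix per library, which the authors deposited; per the submitters' processing notes they were made with Cell Ranger 7.1.0 on GRCh38. No filter was applied beyond the rule, and no annotation of cells was used. Counts of the TTR-high cells, of other epithelial cells and of TTR-low cells were summed per library and given as CPM. Log2 ratios between sums carry exact conditional counting intervals, differences of ratios a normal approximation, and shares exact Clopper-Pearson intervals. Counts of genes use those with at least 10 CPM in either sum and a fold of 2, and list medians those with at least 1 CPM. Percentages of cells with a UMI were taken after thinning to 10000 UMIs, with unthinned values beside them, and numbers of cells with a UMI are unthinned. With 1 library per group edgeR 4.0.16 gave only TMM scaling factors, and no test was run. Scrublet in scanpy 1.11.5 removed barcodes only in an alternative. The ratio step was tested on simulated data. Genes named follow a rule: the 10 highest and 10 lowest ratios of 3CK to CNT among genes whose higher sum reached 50 CPM, the 5 highest and 5 lowest of each other comparison and of the correlations with TTR, the receptors, and in each list the most abundant, highest and lowest member; other genes were chosen after their values were seen. The members and lists were chosen with earlier results of these data known. The 10 treated cells of low interferon level were singled out after their values were seen. Promoters come from a RefSeq table (GRCh38.p14) matched by symbol. In all, 14 alternatives were planned and 3 were added after seeing the data.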

Additional observations from a re-analysis of the deposited data

How the results depend on the processing

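No paired analysis was possible because each group is 1 library and no result comes from a test. A minimum of 20000 UMIs, a mitochondrial maximum of 10% and doublet removal moved none of the shares, counts of genes and 3CK over CNT medians of the hepatic, apolipoprotein, interferon and MHC class I lists past counting error or 1.5-fold. A list minimum of 10 CPM moved 32 of 100 list medians, none of those 4, and it gave 3.51 for positive acute phase and 2.96 for NF-κB genes. Values are given below for CNT or 3CK as TTR-high over other epithelial cells (within-library), for TTR-high cells as 3CK over CNT, or as the difference of the 3CK over CNT log2 ratios; the cause of each shift was not tested.

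With a TTR minimum of 250 the shares were 61.5% and 25.6%, the within-library counts 18 genes higher in CNT and 101 higher and 402 lower in 3CK, 55 genes had a lower difference, the hepatic difference was 0.27 and the apolipoprotein ratio -0.68, and the differences of CXCL11 (0.65) and CXCL9 (1.32) and the 3CK over CNT ratio of CXCL14 (0.92) changed sign. With a minimum of 1000, where 12 treated cells remain, the shares were 17.8% and 1.82%, 714 genes were lower in CNT, 440 higher and 1669 lower in 3CK, and 912 and 532 had a higher and a lower difference. The medians were then 5.53 for interferon, 3.84 for MHC class I and -0.64 for apolipoproteins, with differences of 1.15 for hepatic genes and -0.87 for interferon. Signs turned for HOX genes (within 3CK, 0.73), CPS1 (0.55), APOH (0.27), CXCL14 (0.66) and MTHFD1L (-0.38) in 3CK over CNT, KCNJ13 (-0.022) and C20orf204 (-1.85) within 3CK, CXCL11 (0.080) within CNT, GC in 3CK over CNT (0.32) and within 3CK (0.96), and the differences of IFIT2 (-0.58), C3 (-0.37), GC (1.05) and HHEX (1.33).

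An EPCAM minimum of 5 gave a 3CK share of 13.1%, 259 genes lower within CNT, an MHC class I median of 3.99 and a difference of -0.88 for S100A9. Without a MALAT1 maximum 755 genes were lower within CNT and 1520 within 3CK. A total without TTR gave 14 genes higher within CNT and an MHC class I median of 4.04, and one without mitochondrial, ribosomal and the 50 most abundant genes gave 915 genes lower in 3CK over CNT, 23 higher within CNT, 328 higher within 3CK and a class I median of 4.03. TMM factors gave 80 and 157 genes within CNT, 350 and 410 within 3CK, a hepatic difference of 0.49, an apolipoprotein median of -0.27 and a class I median of 4.20. Equal weight per cell gave 711 genes lower within CNT, 1650 within 3CK, 227 with a lower difference, and a class I median of 4.20.

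A gene minimum of 50 CPM gave 201 and 123 genes in 3CK over CNT, 2 and 53 within CNT, 76 and 188 within 3CK, and 113 and 23 for the difference. Against TTR-low cells 16 genes were higher within CNT. Of the alternatives chosen after seeing the data, leaving out the 10 treated cells of low interferon level gave a hepatic difference of 0.47. It also gave an interferon median of 6.27, a class I median of 4.18 and a difference of -0.20 for UGT3A1. Cells with TTR below 1000 gave 993 genes lower in 3CK over CNT, 13 higher within CNT, 271 with a lower difference and a class I median of 4.14. Leaving out the highest cell of each gene gave 122 genes higher within 3CK, 197 with a lower difference, a hepatic difference of 0.31 and a ratio of -0.10 within 3CK for APOH. With 65 treated cells, genes under 0.527 CPM there rest on fewer than 3 UMIs.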
